A study of Arabidopsis thaliana with 12 samples.

Results

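The genes described here encode the antenna proteins of both photosystems, the nuclear subunits of photosystems I and II, and the mobile carriers and the Rieske protein that link them. They were taken by locus from a list of 46 nuclear genes, and 38 of the 46 had a probe set among the 21461 tested. The list names genes by function and sets no threshold on a value, but it was drawn up with earlier results of these data known. LHCA2, LHCB1.1 to LHCB1.5, LHCB2.1 and LHCB2.2 had no row in the values used here and were not analysed here. The 38 comprised 5 LHCA genes, LHCB2.3 and LHCB3 of the major antenna, 5 minor LHCB genes, 12 photosystem I subunits, 10 photosystem II subunits and 4 carrier genes. All 46 loci were present in the RefSeq table of Arabidopsis names.

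RNA came from young leaves of Arabidopsis thaliana ecotype Columbia grown at 22 °C with 10 h of light, and was hybridised to 12 Affymetrix ATH1 arrays in 6 groups of 2. Each array held RNA pooled from 5 plants, and n is therefore a number of pools. Moderate drought (mDr) began at 30 days after sowing and held the soil at 30% of field capacity. It was sampled on day 1 and again on day 10, each time beside a well-watered control (WW). Progressive drought (pDr) began at 35 days after sowing, was sampled when plants first wilted, and had a well-watered control of its own.

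In the thylakoid membrane, chlorophyll-binding antenna proteins pass light energy to the reaction centres of photosystems II and I. Photosystem II oxidises water, the cytochrome b6f complex passes electrons on, plastocyanin carries them through the lumen to photosystem I, and ferredoxin takes them up on the stromal side. Transcripts of these nuclear genes are among the most abundant in a green leaf, they are induced by light, and several follow the circadian clock.

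At wilting, 36 of the 38 genes had fallen and none had risen, where 14.5% of all probe sets fell and 12.5% rose. The count was 28 with each sampling weighted by its own spread, where 7.67% of probe sets fell. Rescaled by cyclic loess it was 24 (14.3% of probe sets), and PSBR was then called higher. With the 4 wilting arrays fitted alone it was 14 (4.59% of probe sets). On day 1 and day 10 of moderate drought no gene of the set passed the test in the main fit. The fall was not even across the apparatus, and genes with brighter signals tended to fall less. The plastocyanin gene PETE1, the minor antenna gene LHCB4.3 and LHCA6 lost most, while LHCA4 and PSBR did not pass the test.

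Values are log2 expression values from RMA, changes are log2 differences of drought minus control ± SE with n = 2 arrays per group, and a gene was called at an adjusted p under 0.05 over all 21461 probe sets. The arrays of each sampling had been normalised apart from those of the other samplings, so no level was compared across samplings. Replicates varied more in the wilting set than in the moderate drought sets. The root mean square SD between replicates over these genes was 0.278 log2 units in pDr and 0.205 in its control, against 0.0473 to 0.128 in the other 4 groups. RCA, the Rubisco activase gene of leaf mesophyll, lay between percentiles 99.7 and 99.9 on every array, the floral and meristem genes AP1, LFY, WUS and AG lay at or below percentile 32.8, and the meristem gene STM lay between percentiles 44.8 and 58.8.

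The signal of these probe sets was very strong. On each array the set's median lay between 11.9 and 12.9 log2 units, where the median of all probe sets lay between 4.65 and 5.63. Of the 38 genes, 26 to 35 were among the brightest 214 rows of an array, which is the brightest 1%. The 4 genes beyond brightness rank 250 at wilting were LHCB4.3, LHCA6, LHCA5 and PETE1. Each change is also given relative to equally bright rows. For this a running median over other rows, ordered by mean signal, was subtracted on each array. At the bright end the median was held at 1 value, so the brightest genes shared 1 shift. For them the label is loose, because the window also holds dimmer rows.

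On day 1 of moderate drought the photosynthetic genes stayed close to their controls. No gene was called lower, against 0.00466% of all probe sets, and none was called higher, against 0.014%. No gene of the set had an unadjusted p under 0.05 either, where 3.89% of all probe sets were lower and 4.8% higher at that level. The median change was -0.00, against 0.01 over all probe sets, and 19 of 38 changes lay below 0, where 47.0% of all did. Both drought arrays lay below both control arrays for 9 genes, against 22.9% of all probe sets, and above both for another 9, against 26.6%.

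LHCB4.3, a minor antenna gene of photosystem II, had the lowest change of the set on day 1. It measured 6.80 and 6.92 in mDr leaves, against 7.78 and 7.63 in WW leaves, a change of -0.85 ± 0.38 with an adjusted p of 0.577. The drought arrays lay below both control arrays and close to each other. With the 4 day 1 arrays fitted alone its adjusted p was 0.0325, the only gene of the set called in that fit, where 0.368% of probe sets were called lower. With weights by sampling, chosen after the data were seen, it was again the only call (adjusted p = 0.0432), where 1.98% of probe sets were called lower. PSAD2, a stromal subunit of photosystem I that docks ferredoxin, had the highest change, with 12.33 and 12.52 in mDr leaves and 12.24 and 12.16 in WW leaves. Its change of 0.22 ± 0.17 did not pass the test (adjusted p = 0.775).

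The other antenna genes moved little on day 1. LHCA5, which helps tie photosystem I to the NDH complex, measured 9.47 and 9.61 in mDr leaves and 9.70 and 9.73 in WW leaves, the lowest change among the LHCA genes at -0.17 ± 0.13. LHCA3, a belt antenna protein of photosystem I, had the highest at 0.03 ± 0.09, with 14.08 and 14.06 in mDr leaves and 14.04 and 14.03 in WW leaves. LHCB4.2, which encodes a form of the minor antenna protein CP29, measured 13.05 and 13.16 in mDr leaves, against 12.98 and 12.96 in WW leaves. The major antenna genes LHCB2.3 and LHCB3 had changes of 0.05 ± 0.35 and 0.01 ± 0.09, with overlapping arrays. None of these changes passed the test.

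Among subunits of the reaction centre complexes on day 1, PSAO, a photosystem I subunit at the docking site for mobile antenna, had the lowest change of its complex at -0.05 ± 0.11. It measured 13.19 and 13.19 in mDr leaves and 13.22 and 13.25 in WW leaves. PSBO2 and PSBQ2, both extrinsic proteins of the oxygen-evolving complex, bounded photosystem II. PSBO2 measured 12.05 and 12.18 in mDr leaves and 12.27 and 12.21 in WW leaves, and PSBQ2 measured 13.08 and 13.13 in mDr leaves and 12.93 and 12.93 in WW leaves. Their changes of -0.12 ± 0.10 and 0.17 ± 0.14 did not pass the test, although the arrays of the groups did not overlap.

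PSBS, which senses lumen acidity and switches on thermal dissipation of excess light, had a change of -0.09 ± 0.14 on day 1, with 11.70 and 11.85 in mDr leaves and 11.91 and 11.82 in WW leaves. All 4 carrier genes lay slightly below their controls. The plastocyanin genes PETE1 and PETE2 had changes of -0.17 ± 0.10 and -0.12 ± 0.11, which did not pass the test, and the drought arrays of both lay below the control arrays. FD2, the main leaf ferredoxin, had a change of -0.04 ± 0.28, and PETC, the Rieske iron-sulphur protein of cytochrome b6f, one of -0.02 ± 0.12. The arrays of both overlapped.

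**Figure D1:**
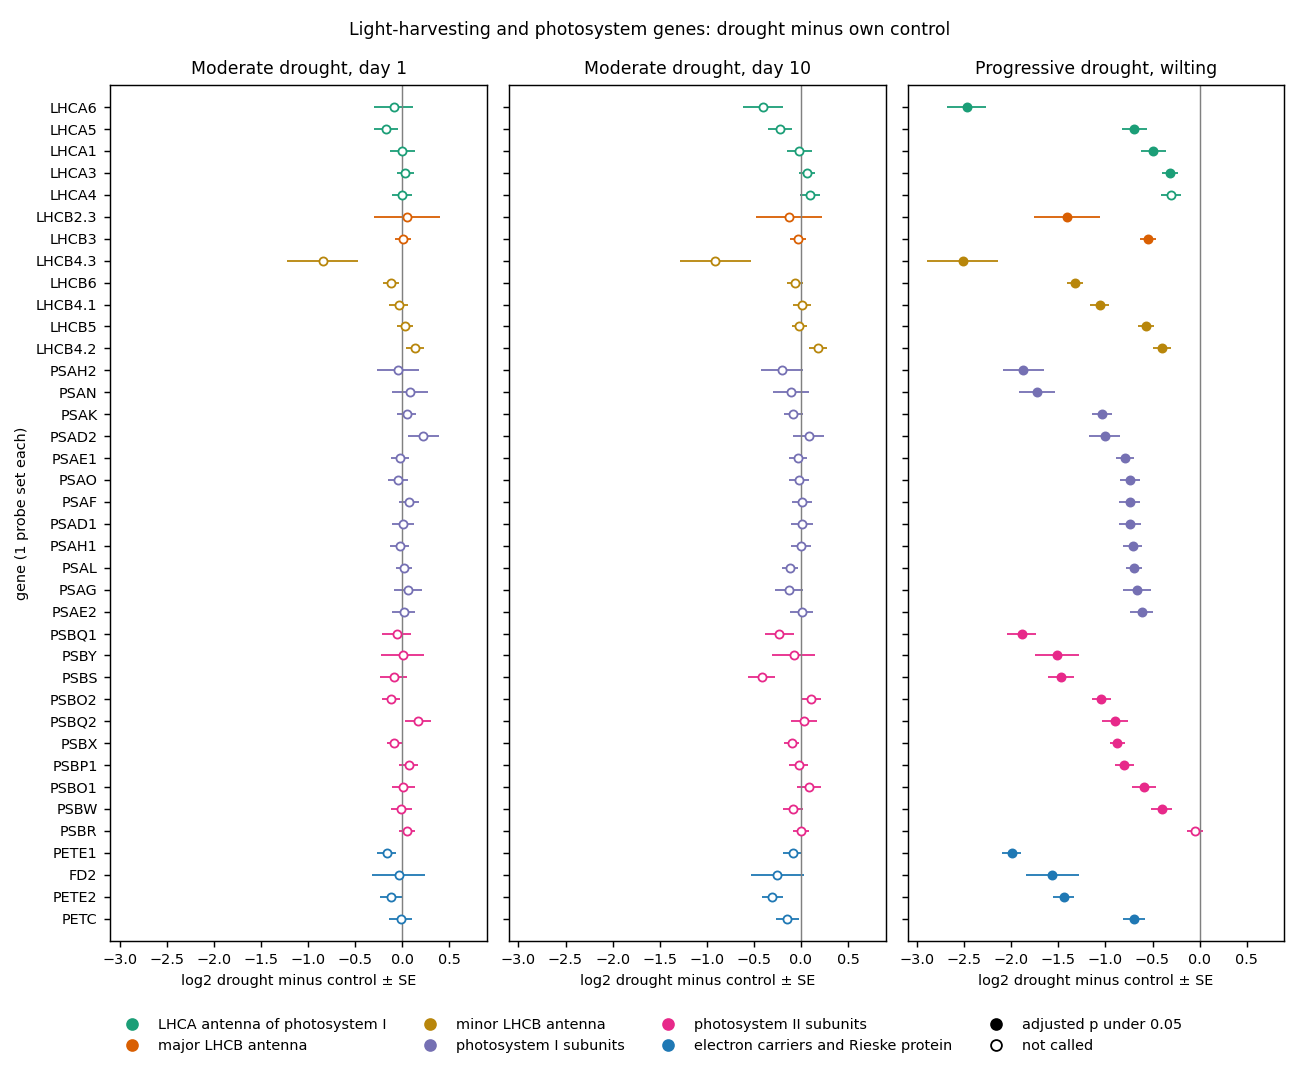
Log2 difference of drought minus control (horizontal axis) for each of the 38 genes (vertical axis, grouped by role and ordered by the change at wilting), in the 3 samplings. Points are limma estimates from 2 drought and 2 control arrays, bars are ± SE, and filled points passed an adjusted p under 0.05: no point is filled on day 1 or day 10, and 36 of 38 are filled at wilting, where all lie below 0.

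On day 10 of moderate drought again no gene of the set was called, lower or higher, where 0.0606% and 0.0466% of all probe sets were. At an unadjusted p under 0.05, 3 genes were lower, against 4.04% of probe sets, and none was higher, against 6.39%. The median change was -0.05, against 0.02 over all probe sets, and 26 of 38 changes lay below 0, where 45.2% of all did. Drought arrays lay below control arrays for 16 genes, where 18.9% of all probe sets did, and above them for 4, where 25.7% did. Relative to equally bright rows the median change was -0.00, and with cyclic loess in place of the deposited scaling it was 0.02.

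The 3 genes with an unadjusted p under 0.05 on day 10 were LHCB4.3, PSBS and PETE2. LHCB4.3 measured 7.57 and 7.84 in mDr leaves and 8.25 and 8.98 in WW leaves, a change of -0.91 ± 0.38 (adjusted p = 0.447). Without control replicate 2 its change was -0.55. PSBS measured 11.54 and 11.81 in mDr leaves and 12.14 and 12.04 in WW leaves, a change of -0.41 ± 0.14 (adjusted p = 0.333). PETE2 measured 13.00 and 13.29 in mDr leaves and 13.45 and 13.45 in WW leaves, a change of -0.31 ± 0.11 (adjusted p = 0.382). In all 3 genes both drought arrays lay below both control arrays, and the adjusted values did not reach the threshold.

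The 4 carrier genes again all lay below their controls on day 10, with no overlap of arrays. FD2 measured 12.39 and 12.73 in mDr leaves and 12.77 and 12.85 in WW leaves, a change of -0.25 ± 0.28. PETC measured 12.48 and 12.61 in mDr leaves and 12.63 and 12.74 in WW leaves, a change of -0.15 ± 0.12. PETE1 measured 11.01 and 11.03 in mDr leaves and 11.06 and 11.15 in WW leaves, a change of -0.09 ± 0.10. Each of these changes was close in size to its SE, and none was called.

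Of the antenna genes on day 10, LHCA6, the other linker of photosystem I to the NDH complex, had the lowest LHCA change. It measured 9.53 and 9.74 in mDr leaves and 10.08 and 10.00 in WW leaves, a change of -0.40 ± 0.21. LHCA4 had a change of 0.09 ± 0.11, with 13.62 and 13.56 in mDr leaves and 13.61 and 13.37 in WW leaves. LHCB4.2 had the highest change of the whole set, 0.18 ± 0.10, with 13.35 and 13.25 in mDr leaves and 13.17 and 13.07 in WW leaves. LHCB2.3 and LHCB3 had changes of -0.13 ± 0.35 and -0.03 ± 0.09, and no antenna gene was called.

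Among the subunits on day 10, PSAH2, which helps dock mobile antenna at photosystem I, had the lowest change of its complex at -0.20 ± 0.22. It measured 12.80 and 12.66 in mDr leaves and 12.91 and 12.96 in WW leaves. PSAD2 had the highest at 0.08 ± 0.17, with overlapping arrays. PSBO2 measured 11.65 and 11.51 in mDr leaves and 11.51 and 11.43 in WW leaves, a change of 0.11 ± 0.10 and the highest of photosystem II. No change of these subunits passed the test.

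At wilting the set fell almost as a whole. Limma called 36 of 38 genes lower, where 14.5% of all probe sets were called lower, and none higher, where 12.5% were. All 38 changes lay below 0, where 49.2% of all did, with a median of -0.79 against 0.00 over all probe sets. Both drought arrays lay below both control arrays for 37 genes, where 27.5% of probe sets did so. A fall of at least 1 log2 unit was called for 16 genes, where 6.98% of probe sets had one. Fewer green cells and less of these RNAs per cell cannot be told apart in RNA from whole leaves.

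The count at wilting depended on how the spread was estimated. The main fit shares 1 spread over all samplings although the wilting arrays varied more. On simulated data with 200 of 21461 rows changed, 58.0% of its wilting calls were false with such unequal spread. With equal spread 7.17% were false. These shares depend on how many rows truly change. In the real wilting data 14.5% of probe sets were called lower and 12.5% higher, so the simulated shares do not carry over to the 36 calls. With the 4 arrays of the wilting set fitted alone 14 genes were called lower, where 4.59% of probe sets were. With array weights the count was 32, where 10.8% of probe sets were called lower, and with weights by sampling it was 28, where 7.67% were. In 22 alternative fits 13 genes were called lower in every one: LHCA6, LHCB4.1, LHCB6, PSBS, PSAK, PSAL, PSAN, PSBO2, PSBP1, PSBQ1, PSBX, PETE1 and PETE2. The other gene called with the 4 arrays alone, PSAF, was not called with cyclic loess. These fits reuse the same wilting arrays and are not independent. Those that left out a day 1 or day 10 array kept the same change at wilting.

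The carriers had the lowest median change of the 6 roles, -1.50, and all 4 fell. PETE1 (probe set AT1G76100_at) measured 8.96 and 8.73 in pDr leaves and 10.87 and 10.81 in WW leaves. It fell 3.99-fold, a change of -2.00 ± 0.10 (adjusted p = 6.4e-06), and the arrays within each group lay close together. PETE2 (AT1G20340_at), the other plastocyanin gene, measured 12.08 and 12.06 in pDr leaves and 13.46 and 13.57 in WW leaves. It fell 2.72-fold, a change of -1.44 ± 0.11 (adjusted p = 3.62e-05).

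FD2 (AT1G60950_at) fell by a like amount but with more spread. It measured 11.72 and 10.76 in pDr leaves, which differ by nearly 1 log2 unit, and 12.59 and 13.02 in WW leaves, a change of -1.56 ± 0.28 (adjusted p = 0.00303). PETC (AT4G03280_at) fell least of the carriers, with 11.90 and 12.21 in pDr leaves and 12.74 and 12.75 in WW leaves. Its change was -0.70 ± 0.12 (adjusted p = 0.00236).

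All 5 minor antenna genes of photosystem II fell, with a median of -1.06. LHCB4.3 (AT2G40100_at) measured 5.78 and 6.34 in pDr leaves and 7.98 and 9.17 in WW leaves. It fell 5.71-fold, a change of -2.51 ± 0.38 (adjusted p = 0.00116), but the SD of its control arrays was 0.85 log2 units. LHCB6 (AT1G15820_at), which encodes the minor antenna protein CP24, measured 11.34 and 11.24 in pDr leaves and 12.57 and 12.65 in WW leaves. It fell 2.50-fold, a change of -1.32 ± 0.08 (adjusted p = 1.42e-05), with little spread in either group.

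LHCB4.1 (AT5G01530_at), another CP29 gene, fell too. It measured 12.27 and 12.06 in pDr leaves and 13.18 and 13.27 in WW leaves, a change of -1.06 ± 0.10 (adjusted p = 8.82e-05). LHCB4.2 (AT3G08940_at) fell least among the minor antenna genes, with 12.62 and 12.65 in pDr leaves and 12.95 and 13.11 in WW leaves. Its change of -0.40 ± 0.10 (adjusted p = 0.0131) became 0.06 and was not called with cyclic loess. The remaining minor antenna gene, LHCB5, changed by -0.57 ± 0.08.

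The major antenna was represented by LHCB2.3 and LHCB3 alone. LHCB2.3 (AT3G27690_at) measured 10.95 and 9.85 in pDr leaves and 11.49 and 12.12 in WW leaves, a change of -1.41 ± 0.35 (adjusted p = 0.016). Its call was lost without the second drought array (a change of -0.86, adjusted p = 0.0583) and without the second control array (a change of -1.09, adjusted p = 0.0999). LHCB3 (AT5G54270_at) measured 12.90 and 12.91 in pDr leaves and 13.42 and 13.49 in WW leaves, a change of -0.55 ± 0.09 (adjusted p = 0.00151). Its drought arrays lay close together, and its change was -0.04 with cyclic loess.

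**Figure D2:**
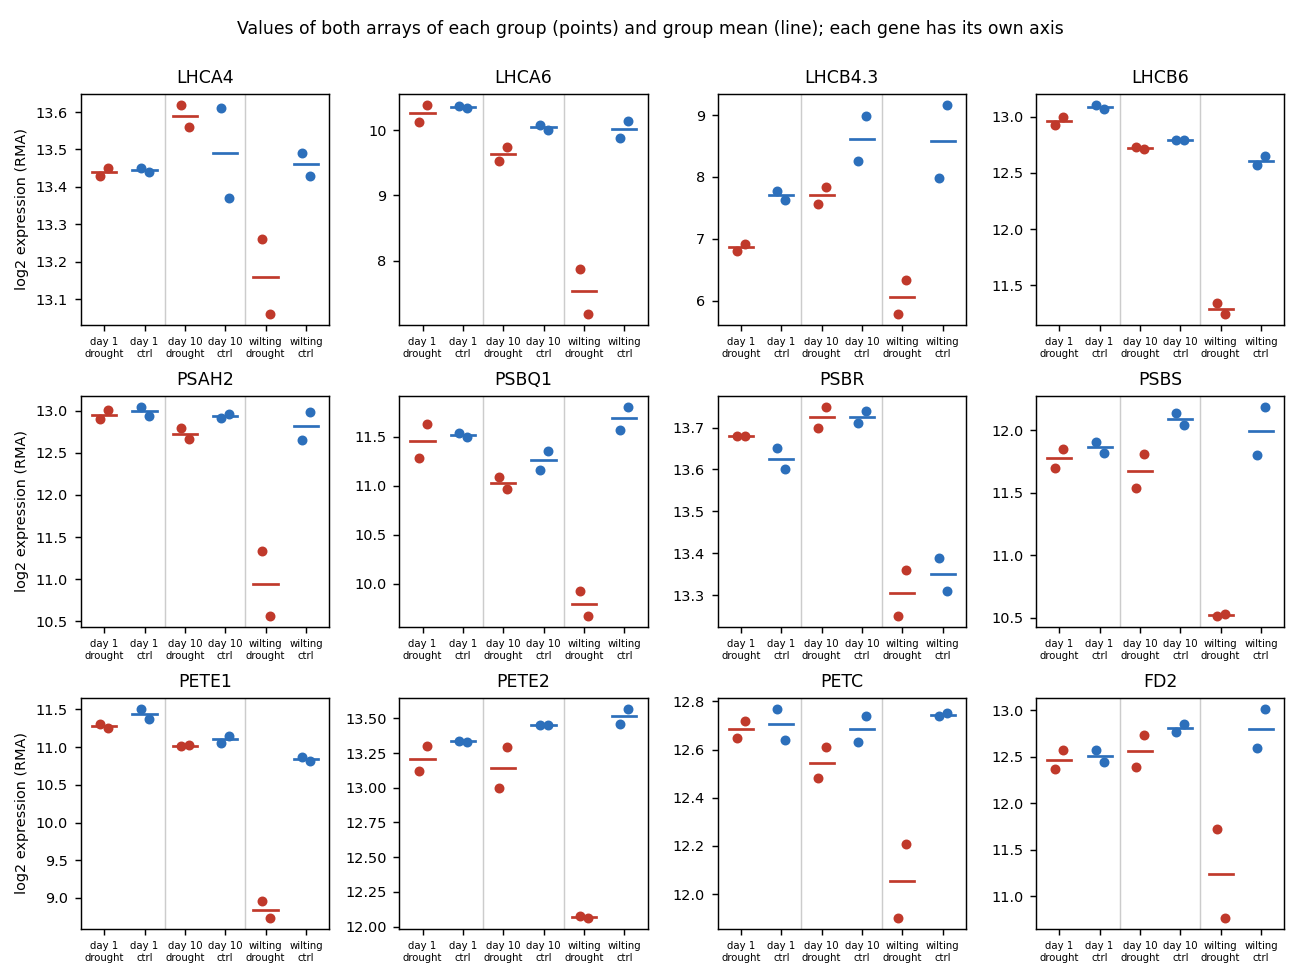
Log2 expression (RMA, vertical axis, a separate scale for each gene) on both arrays of each group for 12 genes. Red points are drought and blue points well-watered control arrays, and short lines are group means. Each sampling was normalised apart, so only neighbouring drought and control groups may be set against each other. At wilting the red points lie below the blue points in 11 of the 12 genes and overlap them for PSBR.

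The antenna of photosystem I changed least in its main belt proteins and most in the NDH linker LHCA6. Of the 5 LHCA genes 4 fell, with a median of -0.49. LHCA6 (AT1G19150_at) measured 7.88 and 7.18 in pDr leaves and 9.88 and 10.14 in WW leaves. It fell 5.56-fold, a change of -2.48 ± 0.21 (adjusted p = 5.52e-05). LHCA5 (AT1G45474_at), the partner linker, fell by much less, with 9.01 and 8.92 in pDr leaves and 9.46 and 9.86 in WW leaves, a change of -0.69 ± 0.13 (adjusted p = 0.00386).

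LHCA4 (AT3G47470_at), a belt protein that binds chlorophylls absorbing in the far red, did not pass the test. It measured 13.26 and 13.06 in pDr leaves and 13.49 and 13.43 in WW leaves, a change of -0.30 ± 0.11 (adjusted p = 0.0726). Both drought arrays lay below both control arrays, and without the first drought array it was called at an adjusted p of 0.0446. The belt genes LHCA1 and LHCA3 fell by 0.49 and 0.32, but neither was called with array weights (adjusted p = 0.0512 and 0.110). Nor was either called relative to equally bright rows (0.240 and 0.635), where both took the shared shift of the bright end. They were called lower in 13 and 10 of 22 alternative fits, and with cyclic loess LHCA1, LHCA3 and LHCA4 had changes of 0.02, 0.25 and 0.21 without a call.

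All 12 photosystem I subunits fell, within a range of -1.87 to -0.62 and with a median of -0.74. PSAH2 (AT1G52230_at) measured 11.33 and 10.56 in pDr leaves and 12.65 and 12.98 in WW leaves. It fell 3.66-fold, a change of -1.87 ± 0.22 (adjusted p = 0.000298). PSAN (AT5G64040_at), a lumenal subunit that helps receive plastocyanin, measured 11.07 and 10.60 in pDr leaves and 12.53 and 12.59 in WW leaves. It fell 3.30-fold, a change of -1.72 ± 0.19 (adjusted p = 0.000213).

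PSAK (AT1G30380_at), an antenna-side membrane subunit, had the smallest adjusted p of photosystem I. It measured 12.40 and 12.63 in pDr leaves and 13.47 and 13.62 in WW leaves, a change of -1.04 ± 0.10 (adjusted p = 0.000114). PSAE2 (AT2G20260_at), a stromal subunit at the ferredoxin site, fell least, with 10.58 and 10.94 in pDr leaves and 11.42 and 11.33 in WW leaves. Its change was -0.62 ± 0.12 (adjusted p = 0.0049). No photosystem I subunit had overlapping arrays.

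Of the 10 photosystem II subunits 9 fell, with a median of -0.88. PSBQ1 (AT4G21280_at), an extrinsic subunit of the oxygen-evolving complex, measured 9.93 and 9.67 in pDr leaves and 11.57 and 11.81 in WW leaves. It fell 3.70-fold, a change of -1.89 ± 0.15 (adjusted p = 4.04e-05). PSBS (AT1G44575_at) measured 10.51 and 10.53 in pDr leaves and 11.80 and 12.19 in WW leaves. It fell 2.77-fold, a change of -1.47 ± 0.14 (adjusted p = 0.000109), with nearly equal drought arrays.

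PSBX (AT2G06520_at), a small membrane subunit of photosystem II, averaged 12.02 ± 0.04 in pDr leaves and 12.90 ± 0.0007 in WW leaves (SD, n = 2). Its change was -0.87 ± 0.08 (adjusted p = 8.8e-05). PSBR (AT1G79040_at), which helps attach the oxygen-evolving subunits, was the exception of the whole set. It measured 13.25 and 13.36 in pDr leaves and 13.39 and 13.31 in WW leaves, a change of -0.04 ± 0.08 (adjusted p = 0.796) with overlapping arrays. Relative to equally bright rows, with the shared shift of the bright end, the change of PSBR was 0.19 and was not called. With cyclic loess PSBR was called higher at 0.47 (adjusted p = 0.00395).

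The falls were set against the changes of other bright rows. Among the other rows at wilting, the 100 brightest had a median change of -0.06 and the next 150 one of -0.25, 27% and 36% of them were called lower, and 26% and 18.7% were called higher. The running median ended at -0.24, and this shared value was subtracted from 34 of the 38 genes in the relative values. Of these, 28 ranked within the brightest 100, where the other rows had the median of -0.06. For those 28 genes the relative values subtract more than the median change of rows of their own brightness. On that scale 29 genes fell, where 14.0% of all probe sets did, with a median change of -0.56. With a narrower window of neighbouring rows 33 fell, with a median of -0.69. The share of all probe sets called was not counted for that window. With cyclic loess, which bends the scale of each array by signal strength and includes these genes in its curve, 24 fell, where 14.3% of probe sets did, and 1, PSBR, was called higher, where 13.0% were. The median was then -0.41, and 5 genes lay above 0. Among the 38 genes the brighter ones tended to fall less. The median change was -0.74 for the 28 within brightness rank 100 and -1.44 for the 6 next to rank 250. It was -2.24 for the 4 beyond rank 250. The Spearman correlation of control level with change was 0.53. The part of signal strength in the size of each fall was not tested.

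**Figure D3:**
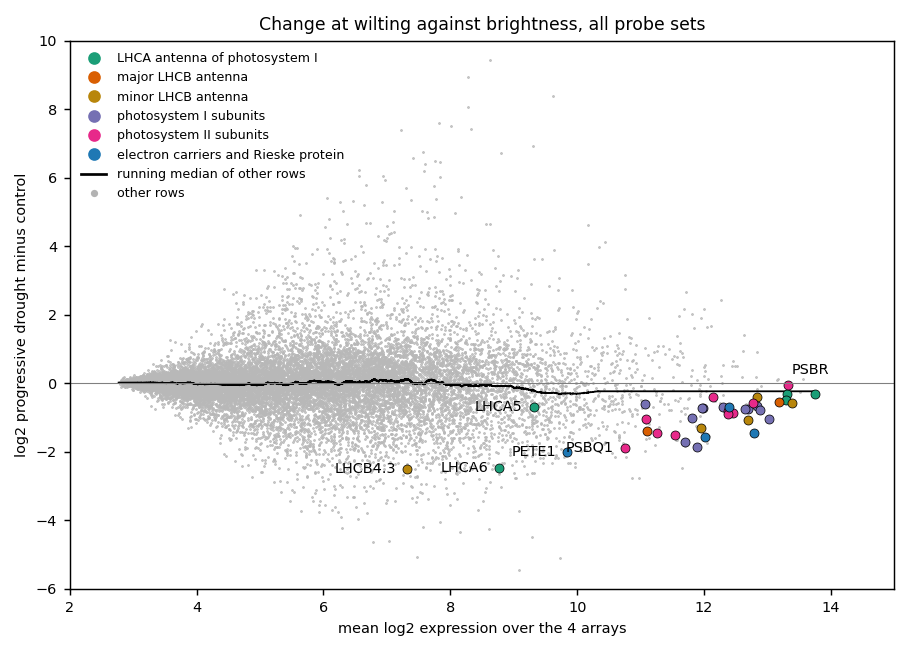
Log2 progressive drought minus control (vertical axis) against the mean log2 expression of the 4 arrays of the wilting set (horizontal axis) for all probe sets. Grey points are other rows, coloured points are the 38 genes by role, and the black line is the running median of the other rows, which ends at -0.24. The coloured points crowd at the bright end, all but PSBR lie below the line, and LHCB4.3, LHCA6 and PETE1 lie farther left and lowest.

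Related genes of a family fell by unequal amounts. The pairs below were chosen with values of these data known, and the change of their log2 ratio between drought and control is a description. An exact permutation test of 2 against 2 arrays cannot give a p below 0.333. The ratio of LHCA6 to LHCA5 changed by -1.78 ± 0.31, that of PSAH2 to PSAH1 by -1.16 ± 0.47, and that of PSBQ1 to PSBQ2 by -0.99 ± 0.24. The ratio of PETE1 to PETE2 changed by -0.55 ± 0.14 and that of PSBO2 to PSBO1 by -0.45 ± 0.13. In these 5 pairs the ratios of the drought arrays lay below those of the control arrays.

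Within the CP29 genes, the ratio of LHCB4.3 to LHCB4.1 changed by -1.45 ± 0.67 and that of LHCB4.1 to LHCB4.2 by -0.66 ± 0.12, again without overlap. The stromal pairs of photosystem I behaved otherwise. The ratio of PSAD2 to PSAD1 changed by -0.27 ± 0.30 and that of PSAE2 to PSAE1 by 0.17 ± 0.19, with overlapping arrays. In moderate drought the ratio of LHCB4.3 to LHCB4.1 also lay lower on both drought arrays, with changes of -0.81 ± 0.11 on day 1 and -0.92 ± 0.39 on day 10. The same held for PSBQ1 to PSBQ2 (-0.23 ± 0.15 and -0.26 ± 0.08) and LHCB4.1 to LHCB4.2 (-0.18 ± 0.05 and -0.17 ± 0.07). On day 1 alone the arrays did not overlap for PSBO2 to PSBO1 (-0.13 ± 0.10) and PSAD2 to PSAD1 (0.22 ± 0.03). On day 10 alone they did not overlap for LHCA6 to LHCA5 (-0.18 ± 0.11), PSAH2 to PSAH1 (-0.20 ± 0.04) and PETE1 to PETE2 (0.22 ± 0.14), the last in the opposite direction to wilting. Whether probes of 1 copy also bind RNA of its close relative was not tested.

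**Figure D4:**
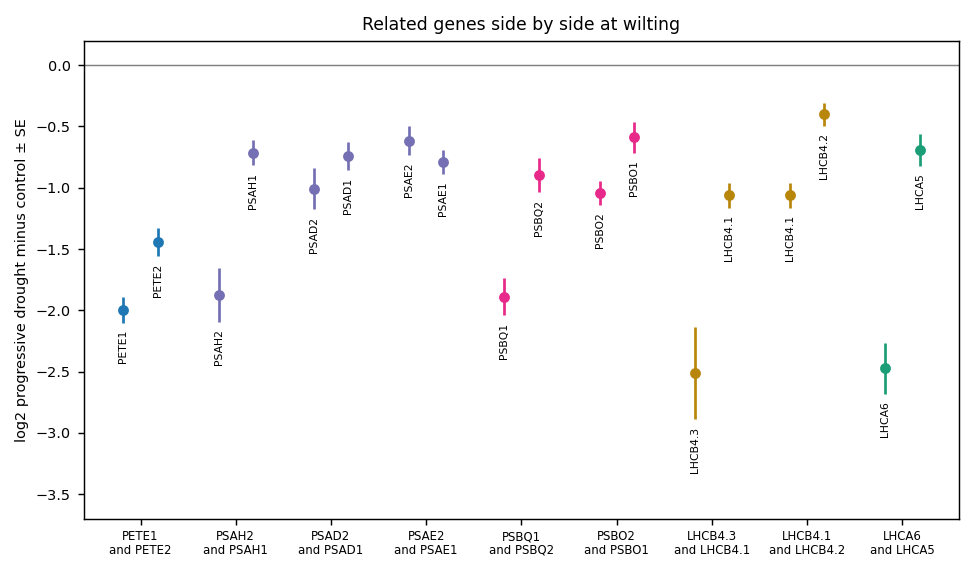
Log2 progressive drought minus control ± SE (vertical axis) for 9 pairs of related genes (horizontal axis), each estimated from 2 drought and 2 control arrays, with all points passing an adjusted p under 0.05. The lower partner stands apart by more than the bars in every pair except PSAD2 and PSAD1, and PSAE2 and PSAE1, whose bars overlap.

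The drought effect at wilting was larger than that of moderate drought for most of the set in the main fit. In the test of the difference between effects, wilting against day 1, 28 genes were lower, where 7.26% of all probe sets were, and none was higher, where 5.26% were. Against day 10, 27 genes were lower, where 7.61% of probe sets were, and none was higher, where 4.67% were. The difference for PETE1 was -1.83 ± 0.15 against day 1 (adjusted p = 0.000315) and -1.91 ± 0.15 against day 10 (adjusted p = 0.000217). The difference for LHCB6 was -1.20 ± 0.12 and -1.25 ± 0.12.

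LHCB4.3 was not among the 28 or the 27 (adjusted p = 0.0800 and 0.0912). Its change was -2.51 ± 0.38 at wilting, -0.85 ± 0.38 on day 1 and -0.91 ± 0.38 on day 10. Day 10 and day 1 effects differed for no gene of the set, where 0.0% of all probe sets were called either way, and no gene of the set reached an unadjusted p under 0.05, where 2.91% of all were lower and 3.95% higher. The counts against moderate drought were smaller with other fits and scalings. With weights by sampling they were 21 and 18, where 4.92% and 4.66% of probe sets were called lower. Relative to equally bright rows they were 18 and 16, where 7.14% and 6.99% of probe sets were called lower. With cyclic loess they were 13 and 13, where 7.25% and 6.99% were. Without single arrays of the day 1 or day 10 sets they fell as low as 17 (without WW day 1 replicate 2) and 14 (without WW day 10 replicate 2).

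The nuclear genes of the NDH complex, which cycles electrons around photosystem I, nearly all fell. For the counts of this and the other gene lists at wilting, the shares over all probe sets were 14.5% called lower and 12.5% called higher. Of 13 measured 12 fell at wilting and none rose, with a median change of -2.03, where the 38 genes had one of -0.79 and all probe sets one of 0.00. PNSB3, a subunit of its stromal subcomplex B, measured 5.88 and 6.03 in pDr leaves and 9.44 and 9.22 in WW leaves, a change of -3.37 ± 0.20 (adjusted p = 9.86e-06). PNSL4, a lumenal subunit, changed by -2.92 ± 0.20, and NDHN by -2.16 ± 0.11. LHCA6 and LHCA5 join this complex to photosystem I, and their changes were -2.48 and -0.69. On day 1 and day 10 no NDH gene was called.

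Among 18 factors for assembly and repair of the photosystems 12 fell and 1 rose at wilting, with a median of -1.12, where 14.5% of all probe sets fell and 12.5% rose. PSB28, an assembly factor of photosystem II, changed by -2.59 ± 0.21. THF1, needed to form thylakoids, changed by -1.29 ± 0.11, and PPL1, a PsbP-like protein for repair of photosystem II, by -2.52 ± 0.22. FTSH8, a subunit of the thylakoid protease that removes damaged reaction centre protein, was the 1 gene of the list that rose, with a change of 0.93 ± 0.25. It was named after its value was seen.

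Of 16 other genes of electron transport and ATP synthesis 9 fell and 1 rose. FDC2 and FDC1, ferredoxin-like proteins, changed by -1.48 ± 0.14 and -1.56 ± 0.15, and ATPC1, the gamma subunit of the chloroplast ATP synthase, by -1.27 ± 0.13. PGRL1B, a protein of cyclic electron flow, rose by 0.98 ± 0.12, and its relative PGRL1A changed by -1.24 ± 0.13. Both were named after their values were seen.

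Relatives of the antenna proteins moved both ways. Of 9 measured 5 fell and 2 rose. LIL3.1, which anchors enzymes of chlorophyll synthesis, changed by -2.19 ± 0.15, SEP1, a stress-enhanced protein, by -1.25 ± 0.14, and OHP1, which helps build photosystem II, by -1.34 ± 0.20. The 2 that rose were LHCB7 at 1.21 ± 0.28 and SEP2 at 1.13 ± 0.36, named after their values were seen. LHCB7 measured 7.51 and 8.45 in pDr leaves and 6.79 and 6.75 in WW leaves, against falls of the other measured LHCB genes in the main fit. With array weights SEP2 was not called (adjusted p = 0.0986).

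Of 8 genes for antenna targeting, chlorophyll b synthesis and phosphorylation 4 fell and none rose. CPFTSY, the membrane receptor of the chloroplast signal recognition particle that delivers antenna proteins, changed by -1.20 ± 0.13. PBCP, the phosphatase of photosystem II core proteins, changed by -0.76 ± 0.10, and STN8, their kinase, by -0.81 ± 0.12.

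**Figure D5:**
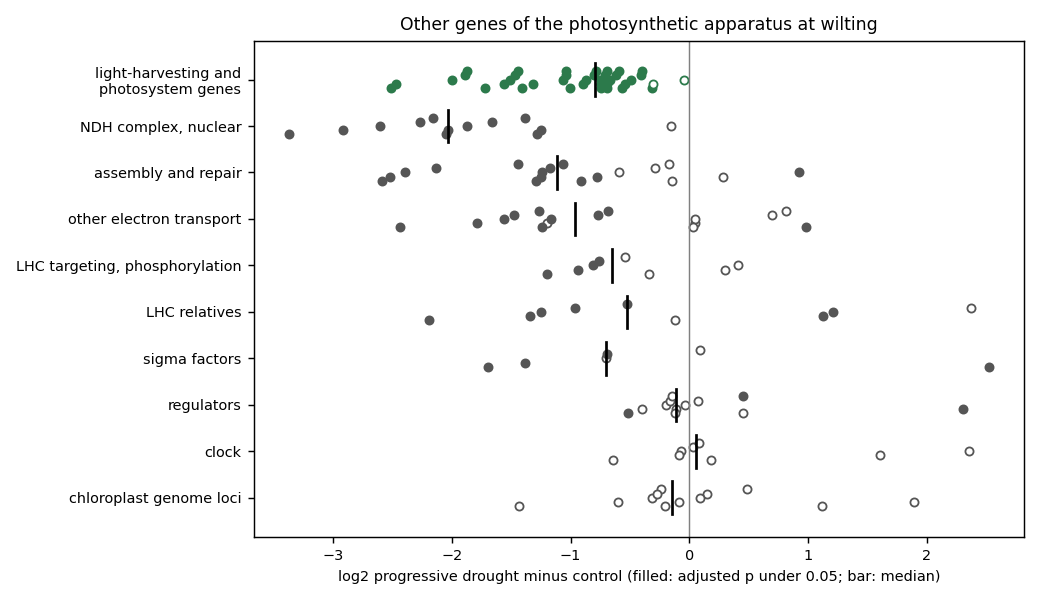
Log2 progressive drought minus control (horizontal axis) for the 38 genes (green) and for other gene lists of the photosynthetic apparatus and its control (grey), 1 point per gene and 2 arrays per group. Filled points passed an adjusted p under 0.05 and black bars are list medians: -0.79 for the 38 genes, -2.03 for the NDH complex and -0.15 for the chloroplast genome loci, where no point is filled.

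Of 12 measured regulators of these genes 2 rose and 1 fell at wilting, a share near that of all probe sets, of which 12.5% rose and 14.5% fell. PIF3, a phytochrome-interacting factor, measured 7.25 and 7.36 in pDr leaves and 5.15 and 4.84 in WW leaves, a change of 2.31 ± 0.15 (adjusted p = 1.65e-05). HY5, an activator of light-induced genes, rose by 0.45 ± 0.14, and GUN1, of signalling from the plastid to the nucleus, fell by 0.51. The call of HY5 was not made with array weights (adjusted p = 0.108). GLK1 and GLK2, known activators of antenna and photosystem genes, had changes of -0.11 ± 0.30 and -0.12 ± 0.54, and the arrays of both groups overlapped.

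Of the 6 sigma factors, which direct the plastid's own RNA polymerase, 3 fell and 1 rose, where 14.5% of all probe sets fell and 12.5% rose. SIG4, the remaining one that fell, was not called with array weights (adjusted p = 0.0875). SIG2 changed by -1.69 ± 0.17, SIG6 by -1.39 ± 0.24, and SIG5 by 2.53 ± 0.58. SIG5 measured 9.43 and 7.83 in pDr leaves and 5.35 and 6.84 in WW leaves. Of 12 loci of the chloroplast genome none was called by limma at wilting, 4 had an unadjusted p under 0.05, and none was called lower or higher with array weights. Their changes ranged from -1.44 to 1.89, with a median of -0.15.

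Clock genes differed between arrays of the same group in the wilting set. Of 8 measured none was called by limma at wilting and none reached an unadjusted p under 0.05, nor was any called with array weights. CCA1, a morning gene of the clock, measured 9.54 and 6.64 in pDr leaves and 4.05 and 7.42 in WW leaves, a change of 2.36 ± 1.07. TOC1, an evening gene, measured 5.93 and 8.80 in pDr leaves and 8.45 and 6.21 in WW leaves. The first drought and the second control array were thus high in CCA1 and low in TOC1, and the second drought and first control array were high in TOC1. On day 10 the mDr arrays also differed, with 7.10 and 8.42 for TOC1 and 7.05 and 8.68 for ELF3, another clock gene. In WW leaves TOC1 measured 8.27 and 8.51, and ELF3 8.21 and 8.08. On day 1 the CCA1 values lay between 4.94 and 5.23 on all 4 arrays. Of the 38 genes 8 differed by over 0.5 log2 units between the pDr arrays, with LHCB2.3 at the low extreme (-1.10 for replicate 2 minus replicate 1). The part of the clock genes' differences in the falls was not tested.

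Plastocyanin carries copper, and other genes of copper use, transport and control were set beside it. CSD2, the chloroplast copper/zinc superoxide dismutase, changed by -5.47 ± 0.32 at wilting. CCS, its copper chaperone, changed by -2.82 ± 0.29, and PAA1, a copper pump of the chloroplast envelope, by -0.72 ± 0.12. Of 4 measured these 3 fell and none was called higher. The remaining gene, SPL7, changed by 0.81 and was not called. In moderate drought CSD2 fell by 3.41 on day 1 and had a change of -1.22 on day 10, which did not pass the test (adjusted p = 0.207). PETE1 and PETE2 were not called on either day.

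Of 3 measured mesophyll genes RCA fell by 0.67 at wilting and 1 other fell, with a median of -0.67 and sums of 13.29 to 13.40 log2 units in pDr leaves and 13.94 to 13.98 in WW leaves. Markers of other leaf cells were measured on the same arrays. At wilting, 1 of 6 vascular markers rose (IRX3, by 0.76) and none fell, with a median of 0.49, and the summed signal of the list lay between 9.58 and 10.27 log2 units in pDr leaves and between 9.27 and 9.59 in WW leaves. Of 4 epidermis markers KCS6 rose by 1.67 and PDF2 fell by 0.63. All but KCS6 lay below 0, with a median of -0.48 and sums of 10.29 to 10.82 in pDr leaves and 9.79 to 10.28 in WW leaves. Of 4 guard cell markers KAT1 fell by 1.26, with sums of 6.31 to 6.51 in pDr leaves and 6.62 to 6.98 in WW leaves. Of 4 genes known as root markers PYK10 fell by 1.01, with sums of 6.62 to 6.90 in pDr leaves and 7.03 to 7.49 in WW leaves. On day 1 the vascular median was 0.54 with none called, with sums of 9.94 to 10.02 in mDr leaves and 9.51 to 9.59 in WW leaves.

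The 3′ minus 5′ signal of the actin control probes was 0.80 and -1.05 in pDr leaves and 1.41 and 1.25 in WW leaves, and that of the ubiquitin control probes was -0.36 and -0.12 in pDr leaves and -0.18 and -0.43 in WW leaves. The part of these markers and of RNA quality in the falls was not tested.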

How the data were processed

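The deposited values are log2 expression values for 21517 probe sets. Per the submitters' processing notes the authors used RMA and the affy package, whose versions are not given here. RMA subtracts background, sets the arrays to 1 distribution and summarises probes. Probe sets carry locus codes, and the sources used here do not give the probe regrouping behind them. Distributions matched within each sampling's 4 arrays and not across samplings. Loci were looked up in a RefSeq table of names.

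After 56 control probe sets were left out, limma 3.58.1 in R 4.3.3 (lmFit, eBayes) was fitted to all 12 arrays with 1 mean for each of 6 groups, which left 6 residual degrees of freedom beside 2.78 from the prior. P-values are two-sided, with Benjamini-Hochberg adjustment over 21461 probe sets. Differences between drought effects were contrasts of the same fit. Python 3.11.15 with matplotlib 3.10.9 drew the figures. The fit was tested on simulated data and recovered most known changes. When each sampling was simulated with its own measured spread, 58.0% of the simulated wilting calls were false, against 7.17% with equal spread. Only 200 of 21461 rows were changed there, so these shares do not carry over to the real wilting calls.

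The members, the gene lists and the alternatives were chosen with earlier results of these data known. Values are given for the lowest and highest change of each role in each sampling, for up to 2 called genes of each role with the smallest adjusted p, and for PSBS, PETE1, PETE2, FD2 and PETC. From each pathway list up to 3 called genes with the smallest adjusted p are named. Other genes are given as ranges or were named after their values were seen. The alternatives were the 4 arrays alone, array weights, weights by sampling, cyclic loess, values relative to equally bright rows, dim rows left out, trend and robust estimation, replicate blocks and leaving out each array. Promoter motifs were not analysed here. The number of arrays limits the precision, and 2 pools per group give no wider check of plants or growth rounds.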

Additional observations from a re-analysis of the deposited data

Results flagged for a closer look

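The drought effect on these genes differed between samplings in a direct test. The fall at wilting exceeded the change on day 1 for 28 genes, where 7.26% of all probe sets were called lower, and the change on day 10 for 27, where 7.61% were. The 3 smallest adjusted p values against day 1 were those of PETE1 (a difference of effects of -1.83), PSBQ1 (-1.83) and LHCB6 (-1.20). Against day 10 they were those of PETE1 (-1.91), LHCB6 (-1.25) and PSBO2 (-1.15). The cause of these differences was not tested. Wilting and day 1 or day 10 also differ in the age of the plants, in how the drought was applied and in the scale of the arrays. The samplings were normalised apart, with array medians of 4.65 to 4.70 at wilting and 5.50 to 5.63 in moderate drought. These differences cannot be told apart here.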

How the results depend on the processing

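No gene of the set was called on day 10 in the 22 alternatives, and on day 1 the exceptions were the 4 arrays alone and the weights by sampling, each with 1 gene called lower, LHCB4.3. The day 10 median of -0.05 became 0.018 with cyclic loess and -0.0022 relative to the wide window of equally bright rows. At wilting, the 36 genes called lower became 14 with the 4 arrays alone. The median of -0.79 became -0.41 with cyclic loess, -0.69 relative to a narrow and -0.56 relative to a wide window of equally bright rows. In the wide window 34 of the 38 genes shared 1 shift, which also rests on dimmer rows. With cyclic loess 1 gene was called higher, PSBR at 0.47, and LHCB4.2, LHCA1, LHCA3 and LHCA4 turned to 0.065, 0.02, 0.25 and 0.21 without a call. The cause was not tested. The counts against day 1 and day 10, 28 and 27, became 13 and 13 with cyclic loess and 18 and 16 relative to the wide window. With weights by sampling they became 21 and 18. Leaving out each array in turn gave 32 to 36 genes called lower at wilting with medians of -0.87 to -0.75, 17 to 32 against day 1 and 14 to 31 against day 10. Day 1 medians then lay between -0.049 (without mDr replicate 2) and 0.020 (without mDr replicate 1) and day 10 medians between -0.088 (without mDr replicate 1) and 0.027 (without mDr replicate 2), and no gene was called there. The replicate numbers were not taken as pairs in the main fit. Over all probe sets, replicate differences in the drought and control arms correlated at 0.03 on day 1, 0.06 on day 10 and -0.49 at wilting. Over the 38 genes the values were -0.05, 0.40 and -0.21. At wilting the first drought array thus tended to vary with the second control array. With a replicate block 32 genes were called lower at wilting, 18 against day 1 and 17 against day 10. With the crossed pairing at wilting, added after the data were seen, 35 were called. Shares over all probe sets were not counted for the replicate blocks or for the fits that left out an array. The counts of these fits thus have no background beside them. Signal over background limits LHCB4.3, which measured 5.78 on 1 pDr array, where the median of that array was 4.65.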
